A study of Mus musculus with 34 samples.

Results

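The genes of transcription factors of the mast cell (MC) lineage were followed by name in single-cell RNA sequencing tables of mouse ear skin, 10 of the 25853 genes in the tables. They were *Gata1*, *Gata2*, *Mitf*, *Tal1*, *Lyl1*, *Lmo2*, *Runx1*, *Meis2*, *Stat5a* and *Stat5b*, taken by symbol from a list of names. MCs were sorted as CD45+Lin-YFP+ cells from ear skin of male mice aged 7 weeks, in which Cre under the *Mcpt5* (*Cma1*) promoter switched on a YFP reporter in the *Rosa26* locus. The 3 Tln1 ΔMC mice carried Mcpt5-Cre and floxed *Tln1*, the gene for the integrin activator talin, and the 3 WT littermates carried Mcpt5-Cre and the reporter with unfloxed *Tln1*. CD45-GFP+ cells of *Myh11-GFP* ear skin, sorted for vascular smooth muscle cells (VSMCs) and pericytes, were a further population, given here as 1 sample of 4 libraries because their mice are not named. Cre is thus driven by an MC protease promoter, and cells that had not yet used it were not sorted.

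Cells with more than 1000 transcripts were 904 WT and 1573 Tln1 ΔMC MCs in 30 libraries and 330 *Myh11-GFP* cells. Levels are transcripts per 10000 outside genes named Gm plus digits, whose share ran from 14.2% to 58% of all transcripts in the MC mice, and outside them each MC mouse held 699401 to 5238325 transcripts. MC markers summed to between 632 and 872 per 10000 in the 6 MC mice, with all 9 found, and to between 0.055 and 0.265 in the *Myh11-GFP* libraries, where 6 of the 9 were at 0. Summed by mouse, fibroblast markers (6 of 6 found) were higher in every WT mouse (20.1 to 82.7) than in every Tln1 ΔMC mouse (0.976 to 10.5). Most of this sum in WT mice 1, 2 and 3 came from 1 library each, 16 (54.3), 1 (434) and 2 (201). Library 3 of Tln1 ΔMC mouse 1 was at 40.8, and the other libraries of WT mice 2 and 3 were at 0.302 to 5.94. Macrophage markers (10 of 11 found) ran from 2.38 to 41.6 in WT and from 1.66 to 7.77 in Tln1 ΔMC mice. Libraries 1 and 3 of WT mouse 2, library 2 of WT mouse 3 and library 8 of Tln1 ΔMC mouse 3 stood apart by markers of other cells. All libraries used the same well barcodes by design, so that shared barcodes say nothing of shared cells, and 17 kept wells lay in a barcode set that their library did not use. *Tln1* itself stood at 4.51, 5.92 and 6.71 in WT and 5.57, 4.33 and 3.63 in Tln1 ΔMC mice, which overlapped (log2 fold change -0.31 ± 0.24 SE, adjusted p = 0.872, limma). These libraries count 3′ ends, and the position of the deleted part is not given in the sources used here, so that this level does not check the genotype.

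As background, MCs arise from haematopoietic progenitors in which GATA2 is needed for the MC fate, and it later binds, often beside the basic helix-loop-helix protein MITF, the genes for KIT, proteases and the IgE receptor. TAL1 and LYL1 are related helix-loop-helix proteins that bind DNA with E proteins and are joined to GATA factors by the bridging protein LMO2, and RUNX1 is a DNA-binding partner of CBFB in blood development. STAT5A and STAT5B are latent factors that are activated below KIT and cytokine receptors and are needed for MC survival, whereas MEIS2 is a homeodomain protein that pairs with PBX proteins.

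Positions are those of GRCm38 (GENCODE M21). *Gata2* was at chr6:88193891-88207032 on the plus strand, *Tal1* at chr4:115056426-115071755 on the plus strand, *Mitf* at chr6:97807052-98021349 on the plus strand, *Runx1* at chr16:92601466-92826149 on the minus strand and *Gata1* at chrX:7959260-7978071 on the minus strand. *Stat5b* (chr11:100780731-100850724, minus strand) and *Stat5a* (chr11:100859351-100885169, plus strand) were neighbours with 8626 bases between them. Of the stretches of 50 bases in their transcript models, 608 were common to both *Stat5* genes, 8.21% of those of *Stat5a* and 11.0% of those of *Stat5b*, whereas the other 8 members shared none with another member. Because reads with several places were discarded by the authors, these shared stretches could lower the count of both *Stat5* genes.

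The upstream 250 bases are shown for *Gata2* and *Tal1*, the members of highest level, from RefSeq windows of GRCm38.p6 that matched 9 of the 10 members (none for *Lmo2*). Capitals mark, on either strand, the core that GATA factors bind, searched as the 4 words AGATAA and AGATAG, and those with T in place of the first base, which are TGATAA and TGATAG. The *Gata2* window is chr6:88193641-88193890 and the *Tal1* window chr4:115056176-115056425, both on the plus strand.
Gata2: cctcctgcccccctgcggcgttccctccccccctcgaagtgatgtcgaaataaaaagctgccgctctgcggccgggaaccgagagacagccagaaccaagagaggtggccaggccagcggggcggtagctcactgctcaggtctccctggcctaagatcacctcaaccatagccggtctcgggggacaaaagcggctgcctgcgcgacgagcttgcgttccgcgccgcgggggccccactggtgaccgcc
Tal1: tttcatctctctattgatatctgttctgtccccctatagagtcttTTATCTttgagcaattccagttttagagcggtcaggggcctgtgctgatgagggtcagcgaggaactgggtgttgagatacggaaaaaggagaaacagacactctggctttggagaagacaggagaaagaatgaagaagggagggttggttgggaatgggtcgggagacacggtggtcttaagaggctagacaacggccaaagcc
The *Tal1* window held 1 match, which began 205 bases before the start, and this *Gata2* window held none. Of all 32851 such windows 26.5% held at least 1 match. The second and the third *Mitf* windows held 1 and 2 matches, the first none, and no other member window held any.

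*Gata2* was the most abundant factor, with levels of 26.2 in WT mouse 1, 16.0 in mouse 2 and 19.6 in mouse 3, and of 32.2, 22 and 21.3 per 10000 in the 3 Tln1 ΔMC mice in the same order. The mean over the 6 mice was 22.9 ± 5.64 (SD, n = 6), and in every mouse it exceeded the next member, *Tal1*, by at least 5.21-fold. Since each UMI marks the 3′ end of 1 molecule, levels of different genes were compared without division by length. Mouse 1 of each genotype was the highest of its group. By library, *Gata2* ran from 10.2 in library 8 of Tln1 ΔMC mouse 3 to 36.3 in library 4 of Tln1 ΔMC mouse 1, with a median of 23.3 over 30 libraries. Its SD between libraries of a mouse was 3.76 per 10000, below the SD of 5.64 between mice.

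*Gata1*, the GATA factor of erythroid cells, megakaryocytes and eosinophils that MCs also use, was far lower, at 0.659, 0.906 and 0.844 in WT and 0.526, 0.662 and 0.579 in Tln1 ΔMC mice. The highest Tln1 ΔMC mouse lay just above the lowest WT mouse, so that the groups overlapped. Within a mouse *Gata2* transcripts outnumbered those of *Gata1* by 39.7, 17.7 and 23.2 to 1 in WT and by 61.3, 33.3 and 36.8 to 1 in Tln1 ΔMC mice. The ratios of the 2 genotypes overlapped (exact two-sided permutation test, p = 0.3).

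Of the helix-loop-helix and LIM members, *Tal1* was the second most abundant member, at 3.71, 3.07 and 3.25 in WT and 3.58, 3.58 and 3.08 in Tln1 ΔMC mice. The mean was 3.38 ± 0.281 (SD, n = 6), a coefficient of variation of 8.32%, the smallest of the 10 members. *Lmo2*, the bridge between these proteins and GATA factors, stood at 0.508, 0.305 and 0.429 in WT and 0.359, 0.204 and 0.283 in Tln1 ΔMC mice. *Lyl1* was close to the limit of detection, with 9, 9 and 5 transcripts in WT and 1, 10 and 69 in Tln1 ΔMC mice, or 0.0128 to 0.132 per 10000. *Tal1* exceeded its relative *Lyl1* by at least 23.4 to 1 in every mouse, and this ratio rested on 1 *Lyl1* transcript in Tln1 ΔMC mouse 1 (permutation p = 0.8, exact and two-sided).

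*Mitf* was measured at 2.13, 1.70 and 2.02 in WT and 1.85, 1.70 and 1.98 in Tln1 ΔMC mice, with the groups interleaved. *Mitf* is also the master factor of pigment cells, and the 6 melanocyte markers summed to 0.0535 to 0.576 per 10000 in the MC mice, with *Mlana* and *Sox10* at 0 in the Tln1 ΔMC mice. *Meis2* was at the same level as *Mitf*, with 2.53, 1.49 and 1.97 in WT and 2.36, 2.29 and 1.79 in Tln1 ΔMC mice. Each of these genes was the higher of the pair in 3 of the 6 mice. *Meis2* varied less between libraries of a mouse (SD 0.272) than between mice (SD 0.392), as *Gata2* did, while the reverse held for the other 8 members. Levels of single libraries carry more counting error than sums of a mouse, so that this reverse does not show that those members differ little between mice.

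*Stat5b* stood at 0.462, 0.392 and 0.372 in WT and 0.231, 0.331 and 0.569 in Tln1 ΔMC mice. *Stat5a* was at 0.266, 0.253 and 0.229 in WT and 0.231, 0.221 and 0.441 in Tln1 ΔMC mice. For both genes, Tln1 ΔMC mouse 3, which has the most transcripts, was the highest mouse, while the other Tln1 ΔMC mice lay below the WT mice for *Stat5b* and near their lower end for *Stat5a*. The ratio of *Stat5b* to *Stat5a* was 1.74, 1.55 and 1.62 in WT and 1.0, 1.5 and 1.29 in Tln1 ΔMC mice, lower in all 3 of the latter. With 3 against 3 mice the exact two-sided permutation test gave p = 0.1, the smallest it can give. Adjusted by Benjamini-Hochberg over the 3 ratios compared, this permutation p was 0.3. In Tln1 ΔMC mouse 1 the ratio rested on 18 transcripts of each gene, and the 1.5 of mouse 2 lay close to the 1.55 of WT mouse 2. In the order of mean levels, *Gata2*, *Tal1*, *Meis2*, *Mitf*, *Runx1*, *Gata1*, *Stat5b*, *Lmo2*, *Stat5a* and *Lyl1*, the ranges over mice of neighbours were apart after *Gata2*, *Tal1*, *Mitf* and *Stat5a* and overlapped for the other 5 pairs.

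**Figure D1:**
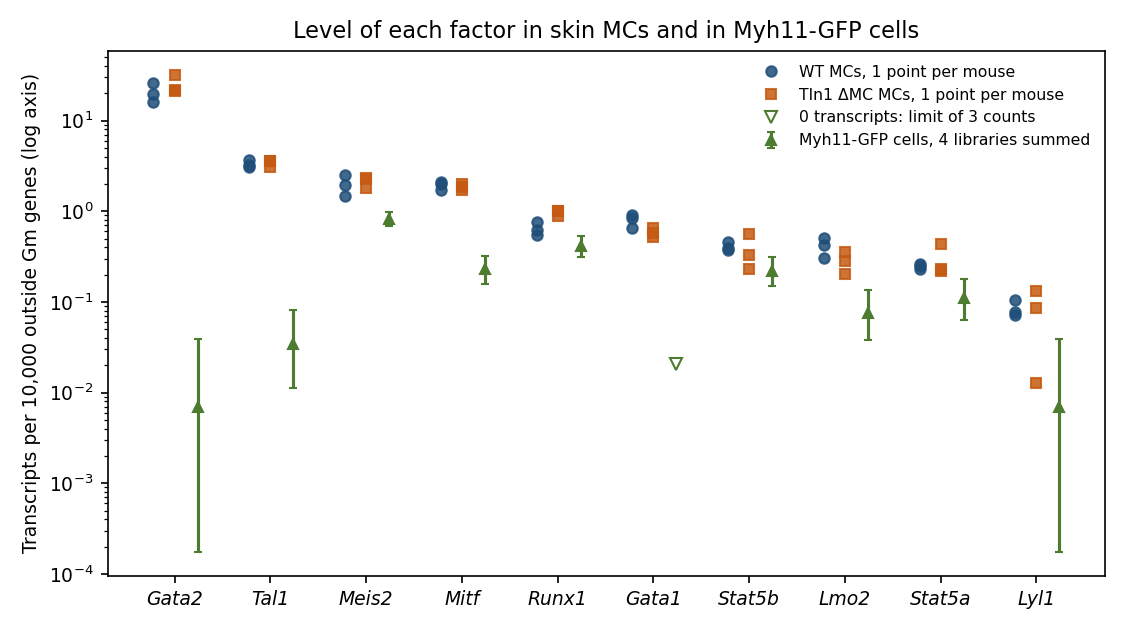
Level of each of the 10 factors on a log axis of transcripts per 10000 outside Gm genes, with 1 point per WT mouse (circles) and per Tln1 ΔMC mouse (squares), and the summed *Myh11-GFP* libraries (triangles) with exact 95% Poisson intervals. *Gata2* lies highest in MCs, at 16.0 to 32.2, and at 0.00694 in *Myh11-GFP* cells, where *Gata1* is marked by the limit of 3 counts, 0.0208, because it was at 0.

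The genotypes were compared to ask whether the loss of talin-dependent adhesion went with another level of the lineage factors. No member passed the test, with 0 of the 9 members that had enough transcripts higher and 0 lower (limma, Benjamini-Hochberg adjusted p under 0.05). The background was 0% of the 8601 genes tested in each direction, so that these 3 mice a genotype gave no called gene at all, while 502 genes (5.84%) had an unadjusted p under 0.05. The median log2 fold change over the 9 members was 0.06, beside 0.00 over all genes, and *Lyl1* was not tested.

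*Runx1* had the largest difference. Its level was 0.763, 0.619 and 0.543 in WT and 0.897, 1.01 and 1.00 in Tln1 ΔMC mice, so that all 3 Tln1 ΔMC mice were above all WT mice. It was the only 1 of the 9 members whose groups did not overlap, where 5.34% of all genes tested did so in this direction and 6.31% in the other. The log2 fold change was 0.63 ± 0.196 (SE, 95% CI 0.19 to 1.07), with an unadjusted p of 0.00931 and an adjusted p of 0.687 (limma), and the exact permutation p was 0.1, the smallest that 3 against 3 mice allow. By background in unused wells the mice fell into 2 sets, mouse 1 of both genotypes and the other 4 mice. Because all Tln1 ΔMC mice lay above all WT mice, the *Runx1* level had to be higher in them within both sets, which is no further check. It was at 0.897 against 0.763 in the former set and at 1.00 to 1.01 against 0.543 to 0.619 in the latter. Fibroblast marker sums, which rested mostly on 1 library in each WT mouse, differed between the genotypes too. In the cells in which fibroblast, macrophage and keratinocyte markers made up at least 1% of transcripts, *Runx1* was at 0.357 (95% Poisson interval 0.241 to 0.510). Without those 83 cells the log2 fold change was 0.58 (adjusted p = 0.868), with SE 0.199. After thinning each cell to 1000 UMIs, *Runx1* was found in 5.53%, 4.58% and 5.10% of WT and 9.58%, 11.5% and 10.3% of Tln1 ΔMC MCs. At 500 UMIs the mice overlapped, at 2.79% to 3.24% in WT and 2.55%, 4.00% and 4.94% in Tln1 ΔMC mice, with Tln1 ΔMC mouse 1 the lowest of the 6, and at 2000 UMIs they ran from 8.8% to 14.8% and from 16.8% to 19.6%.

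The other differences were smaller than their errors allow to be called. *Lmo2* and *Gata1* had log2 fold changes of -0.51 (95% CI -1.12 to 0.10) and -0.40 (-0.92 to 0.11), and that of *Gata2* was 0.33 (-0.22 to 0.87). *Gata1*, *Lmo2* and *Mitf* were lower, and *Gata2* higher, in Tln1 ΔMC mice within both background sets, while *Tal1*, *Meis2*, *Stat5a* and *Stat5b* changed direction between them. The former set is 1 mouse of each genotype. The share of all genes with the same direction in both sets was not counted, so that nothing is read from this. For *Mitf* the interval ran from -0.43 to 0.35 and for *Tal1* from -0.34 to 0.46. The log2 fold changes of *Meis2*, *Stat5a* and *Stat5b* were 0.16, 0.21 and -0.17, with SEs of 0.226, 0.290 and 0.306. Cells with at least 1% other-cell markers, where *Gata2* was at 3.23 per 10000, were 2.07%, 12.6% and 6.25% of WT and 1.05%, 1.69% and 1.39% of Tln1 ΔMC MCs. Without them the log2 fold change was 0.22 for *Gata2*, 0.07 for *Meis2*, -0.44 for *Gata1* and -0.44 for *Lmo2*.

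**Figure D2:**
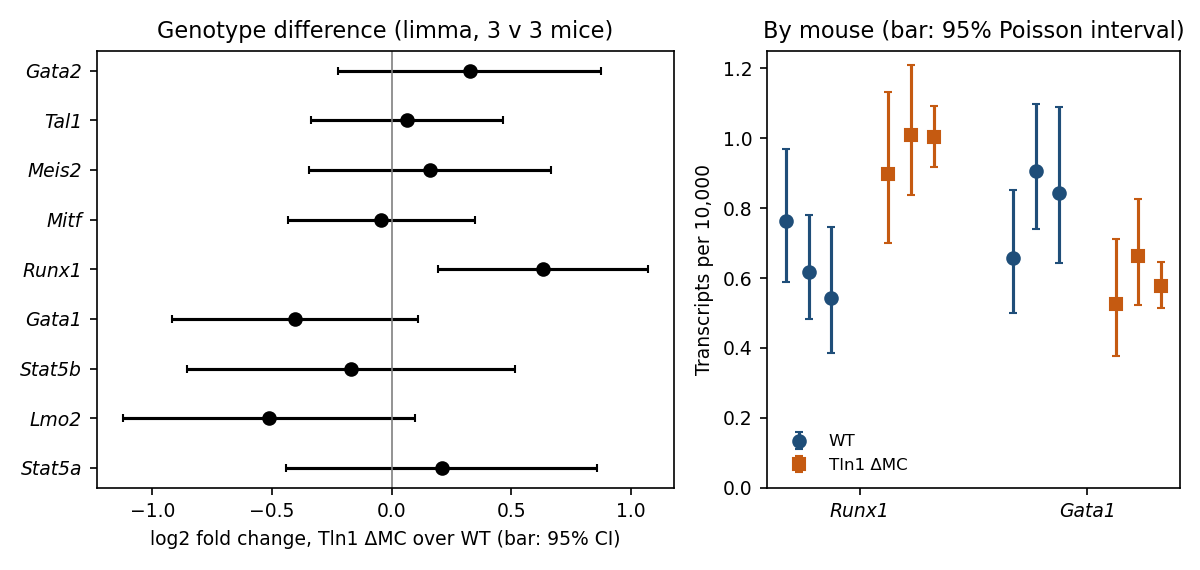
Left, log2 fold change of the 9 tested factors in Tln1 ΔMC over WT mice from limma, with 95% confidence intervals. Right, levels of *Runx1* and *Gata1* per 10000 transcripts by mouse (3 WT, circles; 3 Tln1 ΔMC, squares) with 95% Poisson intervals; the *Runx1* interval, from 0.19 to 1.07, is the only one of the left panel that leaves out 0, and its adjusted p was 0.687 (limma).

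*Myh11-GFP* cells were compared to place the factors against skin cells outside the MC lineage, with no test, since these libraries are 1 sample. *Gata1* was at 0 transcripts in them, so that MCs were at least 33.4-fold higher, taking 3 counts over the 4 libraries (0.0208 per 10000) as the floor. *Gata2* and *Lyl1* had 1 transcript each, with MC to *Myh11-GFP* ratios of 3295 (95% interval 591 to 130151) and 11.6 (2.04 to 463). *Tal1* had 5 transcripts, all in library 15, for a ratio of 97.3 (41.6 to 299.8). Beside them *Mitf* was 8.27-fold (5.87 to 12.1) and *Lmo2* 4.55-fold (2.51 to 9.22) higher in MCs. Of the 9 members with enough transcripts, 5 were at least 4-fold higher in MCs, where 10.4% of the 10637 genes compared were. *Lmo2* was one of the 5 by sums of transcripts, and as a mean over cells its ratio was 1.68. These intervals cover counting error only.

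The other factors were found in both sorted populations. The *Myh11-GFP* libraries were a mixture, and the paper states that a small share of fibroblasts was collected. By library, fibroblast markers summed to 142.3 to 339.9 per 10000 and VSMC markers to 64.4 to 88.4, with pericyte markers between. Of the 330 cells, 99 had at least 1% other-cell markers. Levels here are thus those of the mixture, not of VSMCs or pericytes alone. Without cells with other-cell markers the *Stat5b* ratio was higher, as given below. *Meis2* was at 0.826 per 10000 in *Myh11-GFP* cells (0.684 to 0.989), from 0.398 to 1.29 between their libraries, and 2.51-fold higher in MCs (2.08 to 3.05). *Runx1* was at 0.410 (0.312 to 0.528), 1.97-fold higher in MCs (1.51 to 2.61). *Stat5a* and *Stat5b* were 2.46-fold (1.49 to 4.35) and 1.77-fold (1.23 to 2.61) higher in MCs. For 8 of the 9 members with enough transcripts the lowest MC mouse was above the highest of the 4 *Myh11-GFP* libraries, where this held for 19.3% of the 10637 genes. The gap was narrow for *Stat5a* (0.221 against 0.220), and for *Stat5b*, as for *Lyl1*, the values overlapped.

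When *Myh11-GFP* cells were divided at the median of their summed VSMC markers, equal numbers lay on each side, 20 of all 330 cells within 10% of the cut. The upper group had *Acta2* at 72.2 per 10000 against 10.6 in the lower group. *Mitf* was at 0.130 (0.0596 to 0.248) in the upper and 0.320 (0.205 to 0.476) in the lower group, and all 5 *Tal1* transcripts lay in the lower group. *Meis2*, at 0.768 and 0.880, and *Runx1*, at 0.406 and 0.413, had overlapping counting intervals in the 2 groups. In the lower group 50 cells had at least 1% fibroblast markers, and *Meis2* was at 1.04 (0.695 to 1.49) in them.

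Counted by cell, *Gata2* was again far ahead. After thinning to 1000 UMIs outside Gm genes, which left out 282 MCs and 23 *Myh11-GFP* cells, *Gata2* was found in 81.8% of 2195 MCs (exact 95% binomial interval 80.1% to 83.4%), and in 1 of 307 *Myh11-GFP* cells (0.326%). By mouse this share ran from 71% in WT mouse 2 to 85.8% in Tln1 ΔMC mouse 1. The shares of MCs pool both genotypes, and 923 of the 2195 MCs came from Tln1 ΔMC mouse 3. Their intervals cover counting error and not the spread between mice. *Tal1* was found in 28.4%, *Mitf* in 19.1%, *Meis2* in 18.1%, *Runx1* in 8.70% and *Gata1* in 6.70% of MCs, and the other 4 members in 1.28% to 4.24%. In *Myh11-GFP* cells, which lack MC markers, the shares were 0.326% for *Tal1*, 1.30% for *Mitf*, 7.17% for *Meis2*, 2.28% for *Runx1* and 0 of 307 for *Gata1*, which allows up to 0.977% by the limit of 3 counts (exact 95% binomial upper limit 1.19%). The gene for the MC protease carboxypeptidase A3, *Cpa3*, was in 99.3% of MCs and in 0 of 307 *Myh11-GFP* cells. Unthinned, at medians of 3301 and 3915 transcripts outside Gm genes per cell, *Gata2* was found in 89.5% of MCs, *Tal1* in 57%, *Meis2* in 45.7% and *Mitf* in 45.3%.

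**Figure D3:**
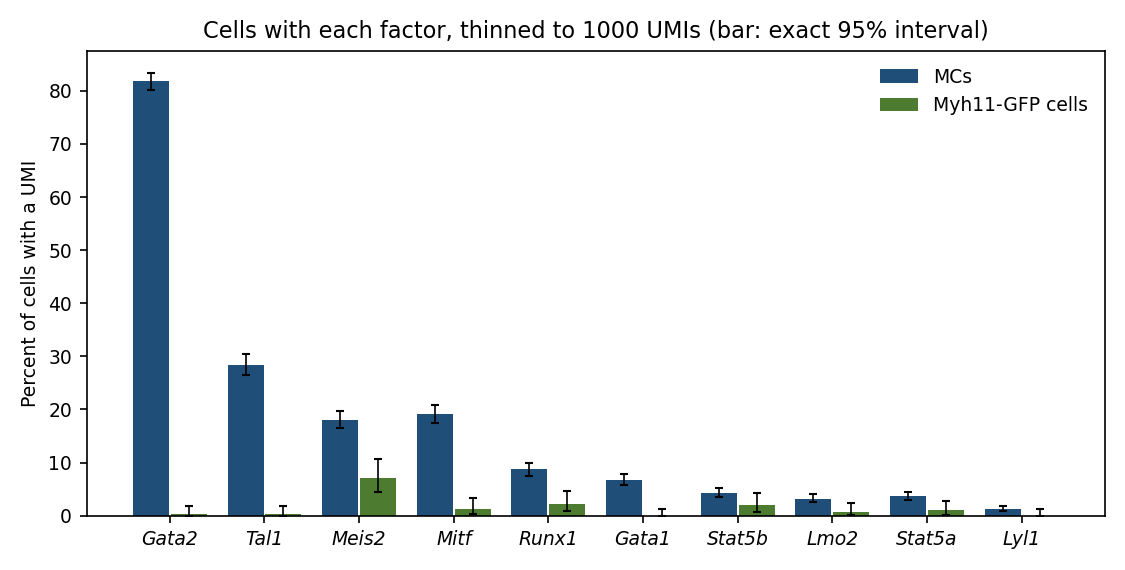
Percent of cells with at least 1 UMI of each factor after thinning to 1000 UMIs, for 2195 MCs and 307 *Myh11-GFP* cells, with exact 95% binomial intervals. *Gata2* stands at 81.8% of MCs, and for *Meis2* the *Myh11-GFP* share of 7.17% is the highest of the 10 genes.

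At this depth 7.38% of the 2195 MCs held none of the 10 factors, 36.7% held 1, 34.8% held 2 and 16.3% held 3. Pairs in the same cell were set beside the product of their shares within each mouse. For the 15 of 45 pairs with at least 30 cells by the product, the ratio of cells found to the product ran from 0.901 to 1.11. *Gata2* and *Tal1* were found together in 508 cells, beside 511 from the product, and *Gata2* and *Mitf* in 356 beside 344. For the other 30 pairs the ratio ran from 0 to 2.11, with *Gata1* and *Mitf* in 36 cells beside 27.5, *Stat5b* and *Mitf* in 27 beside 18 and *Stat5a* and *Stat5b* in 7 beside 3.73, which are small counts that carry no finding.

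MCs were also divided within each mouse at the median of 2 summed levels, a choice made after the data were seen, leaving 2394 MCs without many transcripts of other cells. By the immediate early genes *Fos*, *Junb*, *Dusp1* and *Egr1*, with 6.31% of the cells within 10% of the cut, *Gata2* was at 33, 22 and 25.8 in the upper and 19.7, 15.8 and 17.9 in the lower group of WT mice, and at 34.8, 25.4 and 26.1 against 29.8, 18.2 and 20.6 in Tln1 ΔMC mice. It was thus higher in the upper group in 6 of 6 mice. The same held for *Mitf*, with means of 2.33 ± 0.249 and 1.67 ± 0.210 (SD, n = 6), for *Tal1* with 3.94 ± 0.279 and 3.25 ± 0.326, and for *Meis2* with 2.43 ± 0.266 and 1.90 ± 0.364. Of all 8597 genes tested outside the split, 5.29% were higher in the upper group in 6 of 6 mice. *Runx1* was higher in the upper group in 3 of 6 mice. Median transcripts per cell outside Gm genes were higher in the upper group in 4 of 6 mice, and their part in these values was not tested. By the proteases *Cpa3*, *Cma1*, *Mcpt4* and *Tpsb2*, with 24.6% of the cells within 10% of the cut, *Runx1* was lower in the protease-rich group in 6 of 6 mice, 0.776 ± 0.180 against 0.935 ± 0.227, and *Gata2* higher in 6 of 6, 25.4 ± 5.20 against 22.7 ± 4.54. Of all genes tested, 7.14% were lower and 7.67% higher in the protease-rich group in 6 of 6 mice. The protease-rich group also had more transcripts per cell and a smaller Gm share in 6 of 6 mice, and their part was not tested.

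**Figure D4:**
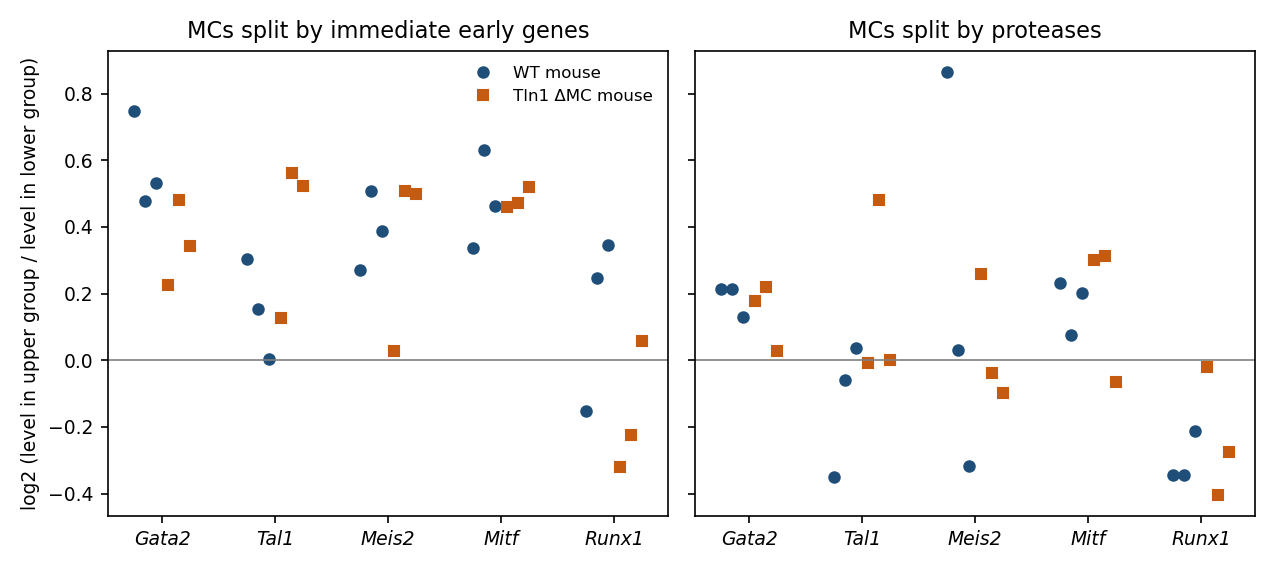
Log2 ratio of the level in the upper to the lower group of MCs, divided within each mouse at the median of immediate early genes (left) or proteases (right), with 1 point per mouse (WT circles, Tln1 ΔMC squares). *Gata2*, *Tal1*, *Meis2* and *Mitf* lie above 0 in all 6 mice on the left, and *Runx1* lies below 0 in all 6 on the right.

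Among 3163 genes with a mean of at least 0.5 per 10000, *Kit*, the receptor for stem cell factor, was most like *Gata2* over the 30 MC libraries (Pearson r = 0.904 of log2 levels, as a description). It was followed by *Slc18a2*, the vesicular monoamine transporter, and *Csf2rb*, the common beta chain of cytokine receptors, with r = 0.821 for each. *Kit* also ranked at the top on deviations from the mean of each mouse (r = 0.925), where *Slc18a2* and *Csf2rb* ranked 11 and 74. For *Tal1* the genes were *Pip4k2a*, a phosphoinositide kinase (r = 0.769), *Stk10*, a lymphocyte kinase (r = 0.732), and *Cited4*, a coactivator (r = 0.703), which ranked 4, 7 and 1 within mice. For *Meis2* they were *BC051077*, *Nav1* and *Dcaf10* (r = 0.840, 0.824 and 0.821), which ranked 17, 37 and 72 within mice. The points share mice, depth and the number of other cells in a library. Without the 4 libraries that stood apart, r was 0.83 for *Gata2* and *Kit* and 0.576 for *Tal1* and *Pip4k2a*, 0.484 for *Tal1* and *Stk10* and 0.504 for *Tal1* and *Cited4*, and those of *Slc18a2* and *Csf2rb* with *Gata2* were 0.625 and 0.646. Between members, *Gata2* and *Tal1* gave r = 0.624 over 30 libraries and 0.169 without those 4, and *Gata2* and *Meis2* 0.706 and 0.397. Fewer MCs among the kept wells and less RNA of a factor per MC cannot be told apart in such sums.

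**Figure D5:**
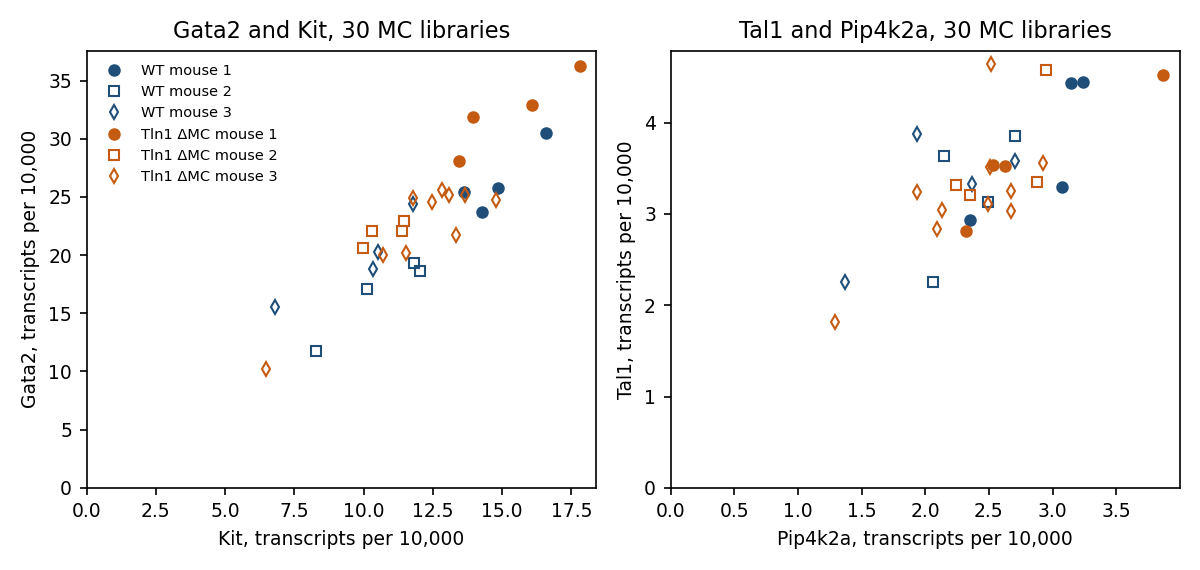
Levels per 10000 transcripts in the 30 MC libraries of *Gata2* against *Kit* (left, r = 0.904 on the log2 scale) and *Tal1* against *Pip4k2a* (right, r = 0.769), with 1 symbol per mouse (WT blue, Tln1 ΔMC orange). Library 8 of Tln1 ΔMC mouse 3 is the lowest in both members, at 10.2 for *Gata2* and 1.82 for *Tal1*.

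The partners of the members were read from a list of 30 factors, of which 26 were tested and 0 were higher and 0 lower in Tln1 ΔMC MCs, with a median log2 fold change of 0.09. The most abundant were *Runx3*, a further RUNX factor, at 4.39 per 10000 (mean of 6 mice), *Hes1*, a Notch target, at 3.47, and *Zeb2*, a zinc finger repressor, at 3.11. *Runx3* was at 3 transcripts in all *Myh11-GFP* cells, and *Hes1* (2.92) and *Zeb2* (4.33) were present in both populations. *Runx3* thus stood above *Runx1* in every MC mouse, at 3.04 to 5.78 against 0.543 to 1.01. In 4 partners, singled out after their values were seen, the groups did not overlap: *Tcf12*, *Ikzf1* and *Runx2* in the higher direction (log2 fold changes 0.44, 0.30 and 0.44) and *Tcf4*, an E protein gene, in the lower (-1.07). Over all genes tested the groups did not overlap in 5.34% in the higher and 6.31% in the lower direction. None of the 4 had an adjusted p under 0.687 (limma), and *Tcf4*, at 5.08 per 10000 in *Myh11-GFP* cells, was at 0.533 ± 0.111 in WT and 0.261 ± 0.141 in Tln1 ΔMC mice (SD, n = 3).

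Upstream of the members, 17 of 19 listed receptors, kinases and feedback inhibitors were tested and none was called in either direction, with a median log2 fold change of 0.16. In 1 of the 17, *Pik3r1*, all Tln1 ΔMC mice lay above all WT mice (log2 fold change 0.39, adjusted p = 0.840, limma). This gene for a phosphoinositide 3-kinase subunit was also singled out afterwards. Of all 8601 genes tested, 5.34% did not overlap in this direction, which is near 1 of 17, so that nothing is read from it. *Socs2*, a STAT5-induced inhibitor, was at 14.8 ± 5.08 in WT and 14.5 ± 2.5 in Tln1 ΔMC mice. *Kit* was at 11.6 ± 2.74 and 12.6 ± 2.37, and *Csf2rb* at 10.9 ± 3.08 and 13 ± 4.66 (SD, n = 3 each). All 25 genes listed as targets of GATA2, MITF or STAT5 were tested, 0 were called in either direction, and their median log2 fold change was 0.00. The 3 with the highest level were the proteases *Mcpt4* (344 ± 48.2 in WT and 292 ± 63.6 in Tln1 ΔMC mice), *Cpa3* (141.9 ± 11.3 and 128.1 ± 23.2) and *Cma1* (135.98 ± 12.1 and 128.3 ± 3.83). The target list shares *Kit*, *Cish* and *Socs2* with the upstream list.

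Of the 20 listed transcription factors of other lineages, 6 passed the filter on transcripts. The highest in MCs were *Srf*, *Mef2c* and *Ebf1*, at 0.583, 0.131 and 0.128 per 10000 (mean of 6 mice), so that *Srf* stood between the members *Gata1* (0.696) and *Stat5b*. Their levels in *Myh11-GFP* cells were 1.05, 3.60 and 9.08. None of the 6 differed between genotypes by the test, and their median log2 fold change was -0.87. *Srf* had a value of 0.20, *Mef2c* of -0.98 and *Ebf1*, a factor of mesenchymal cells, of -0.76. By mouse *Ebf1* stood at 0.243, 0.0872 and 0.143 in WT and 0.179, 0.0849 and 0.0305 in Tln1 ΔMC mice, so that the groups overlapped. The part of other cells in these values was not tested.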

How the data were processed

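Ear skin MCs of 3 WT and 3 Tln1 ΔMC mice (30 libraries) and *Myh11-GFP* cells (4 libraries) were measured by mCEL-Seq2. The authors aligned reads with BWA (0.6.2-r126 in the submitters' processing notes, build mm10), discarded those with several places in the transcriptome, counted UMIs and corrected the counts for UMI collisions (binomial). The corrected transcript counts were deposited without depth scaling, and their units (an other unit, checked from the values) went back to whole UMIs. Doublets were excluded in the sort and no caller was run. Cells with more than 1000 transcripts were kept, which were more MCs than the study's text counts, and the study's limit of 2% *Kcnq1ot1* removed none.

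Transcripts were summed over cells of each mouse, taken as the number after the genotype in the labels. The comparison used limma 3.58.1 (R 4.3.3) with a trend, over genes that reached 10 transcripts in 3 mice or more, on log2(level per 10000 + 0.01), after TMM factors from code written for this purpose, Benjamini-Hochberg adjusted at 0.05. Fold changes are on that scale and understate those of low genes. A count model had been planned and was not run, and this test, planned as an alternative, took its place. It was tested on simulated data. Single values were compared by exact permutation of mice. Nothing says more of the mice than their number, so that p-values measure the spread between these samples.

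Named genes were the members, *Tln1*, the 3 listed genes of highest level per list and the 3 most correlated genes of the 3 highest members, and others are said in the text to be singled out afterwards. Members and lists were chosen with earlier results of these data known. Sequences are from RefSeq (GRCm38.p6). Intervals are exact and cover counting error only. Alternatives for test, scaling, filters, cells and libraries were tried, and some were added after the data were seen. The labels do not say whether mice with the same number are paired. Their deviations correlated with r = 0.163, -0.212 and -0.266, beside 0.421 for WT mouse 2 and Tln1 ΔMC mouse 3. Such correlations cannot exclude a pairing, and mouse 1 of both genotypes shared a background set.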

Additional observations from a re-analysis of the deposited data

Results flagged for a closer look

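In *Myh11-GFP* cells all 5 *Tal1* transcripts came from library 15, at 0.133 per 10000, and the other 3 libraries were at 0, so that this library stood apart. With 3 libraries at 0 any value above 0 in the fourth meets Dixon's criterion, so that it is no test here, and *Gata2* (1 transcript in library 13) and *Lyl1* (1 in library 15) had the same form.

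Wells of the barcode set that a library did not use also held transcripts. The background sets of mice above were taken from these wells, and no level above used them except where a well passed 1000. In MC libraries they held *Gata2* at 24.3 per 10000 (95% Poisson interval 22.6 to 26.1), *Tal1* at 2.80 (2.24 to 3.46) and *Meis2* at 2.04 (1.57 to 2.62), beside means of 22.9, 3.38 and 2.07 in kept MCs. *Gata1* was at 1.12 (0.776 to 1.56) in these wells beside 0.696, and *Stat5a* at 0 (upper limit 0.122) beside 0.273. In *Myh11-GFP* libraries such wells held 0 transcripts of these 3 genes (upper limit 0.858).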

How the results depend on the processing

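No member passed the threshold under any alternative: of 204 recomputed fold changes 197 kept their direction, and the smallest adjusted p was 0.259 (*Runx1* without WT mouse 1; limma). *Tal1* turned to -0.00822 without the macrophage-marker library of WT mouse 2 and to -0.0248 without cells with other-cell markers. Leaving out each mouse moved *Gata1* between -0.58 and -0.30, *Gata2* between 0.14 and 0.47, *Lmo2* between -0.70 and -0.34, *Runx1* between 0.55 and 0.72, *Mitf* between -0.12 and 0.00836, *Tal1* between -0.0117 and 0.16, *Meis2* between -0.0215 and 0.31, *Stat5a* between -0.0786 and 0.36 and *Stat5b* between -0.48 and 0.13 (log2). The log2 ratio of *Tal1* to *Lyl1* moved between -0.34 and 1.44, and was negative without Tln1 ΔMC mouse 1. Over all genes 2 were lower with limma voom and 2 with the background set as a block, and leaving out a mouse gave 0 to 12 (12 without Tln1 ΔMC mouse 1, 1 without WT mouse 1). With the mouse number as a replicate block, whose meaning the labels do not give, 0 genes were called, 437 had an unadjusted p under 0.05 and *Runx1* kept 0.63. With Gm genes in the totals, MC levels fell to 12.8 (*Gata2*), 1.88 (*Tal1*), 1.14 (*Meis2*), 1.07 (*Mitf*), 0.464 (*Runx1*), 0.387 (*Gata1*), 0.231 (*Stat5b*), 0.191 (*Lmo2*) and 0.164 (*Stat5a*), *Meis2* in *Myh11-GFP* cells to 0.672, and the ratios to 5.73 (*Mitf*), 1.69 (*Meis2*) and 1.39 (*Runx1*). As a mean over cells *Lmo2* stood at 0.202 in *Myh11-GFP* cells (ratio 1.68). Without cells with other-cell markers *Stat5b* was at 0.144 there (ratio 2.84) and *Gata2* at 0. Leaving out a *Myh11-GFP* library moved *Gata2* there between 0 and 0.00940, *Tal1* between 0 and 0.0520, *Lyl1* between 0 and 0.0104 and *Meis2* between 0.669 and 0.978 (ratio 2.12 without library 15 to 3.10 without library 14). All 40 alternative shares of cells differed from those at 1000 UMIs by more than the spread between mice. The count models fixed as main test and alternative were not run. Members under about 0.5 per 10000 rest on few transcripts in most mice, which limits what differences can be seen. The cause of these changes was not tested.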

Other observations

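In the 83 MC-library cells with at least 1% fibroblast, macrophage or keratinocyte markers, *Gata2* was at 3.23 per 10000 (95% Poisson interval 2.85 to 3.63) against 23.7 in the other 2394 cells, and *Cpa3* at 24.2 against 130.8. *Tal1* was at 0.452 against 3.50 and *Mitf* at 0.464 against 2.06. *Lmo2*, at 0.286 (0.183 to 0.425) against 0.314, and *Lyl1*, at 0.0714 against 0.107, had overlapping intervals in the 2 groups. *Stat5a* was at 0.226 and 0.357, with intervals of 0.136 to 0.353 and 0.319 to 0.398. These cells were picked by markers of other cells, so that the lower levels of *Cpa3* and of the members in them are no result.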
